A study of Mus musculus with 12 samples.

Results

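Fkbp5, Tsc22d3, Klf9, Sgk1, Zbtb16, Mt1, Mt2 and Nr3c1 are 8 of the 18221 genes measured in the spleens of 12 male ICR mice, an outbred stock, and were chosen by symbol as genes that respond to glucocorticoids or to metals and stress. Spleen RNA was sequenced from 3 mice in each of 4 groups. Con-sa mice were given saline. B-sa mice were given a single injection of busulfan, an alkylating anticancer drug, at 40 mg/kg, and then saline. B+Con-FMT mice were given the same busulfan and then, for 2 weeks, small intestinal contents of control mice by mouth (fecal microbiota transplantation, FMT). B+A10-FMT mice were given the same busulfan and contents of donors dosed with alginate oligosaccharide (AOS), a seaweed-derived sugar polymer, at 10 mg/kg. Mice entered at 3 weeks of age and spleens were taken at 8 weeks. Donor contents were pooled within a donor group, so the mice of an FMT group shared 1 inoculum. The time of day at which spleens were taken is not given in the sources used here, and no hormone level was analysed here.

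Glucocorticoids from the adrenal cortex enter cells and bind the glucocorticoid receptor, encoded by Nr3c1, which HSP90 and its partner proteins hold ready for the hormone. The bound receptor moves to the nucleus and switches on genes such as Fkbp5, Tsc22d3, Klf9, Sgk1 and Zbtb16, and many lymphocytes die when exposed to enough hormone. Metallothioneins, encoded by Mt1 and Mt2, bind zinc and copper, and their genes are switched on by free zinc through the metal-responsive factor MTF1, and also by glucocorticoids and oxidative stress.

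The promoters of Mt2, Mt1 and Sgk1 are printed because they hold the DNA elements that define the 2 arms of this response. They come from RefSeq (build GRCm38.p6), which gave promoters of 300 bases, from 250 before to 50 after a transcript's start, for 6 of the 8 genes. The metal response element core was searched on both strands as TGCACNC or TGCGCNC, where N is any base, and its matches are in capitals in the first 2 sequences. The Mt2 promoter lies at chr8:94172368-94172667 and the Mt1 promoter at chr8:94178839-94179138, both on the plus strand, and each ends inside the transcribed part of its gene. The Mt1 gene is listed from 94178883, so part of what precedes the transcript start used here also lies inside that gene. Capitals in the Sgk1 sequence mark a glucocorticoid response element, searched as the half-sites AGAACA and TGTTCT with 3 bases between them, and the sequence is 75 bases, chr10:21993671-21993745 on the plus strand, of 1 of its 6 listed promoters.
Mt2: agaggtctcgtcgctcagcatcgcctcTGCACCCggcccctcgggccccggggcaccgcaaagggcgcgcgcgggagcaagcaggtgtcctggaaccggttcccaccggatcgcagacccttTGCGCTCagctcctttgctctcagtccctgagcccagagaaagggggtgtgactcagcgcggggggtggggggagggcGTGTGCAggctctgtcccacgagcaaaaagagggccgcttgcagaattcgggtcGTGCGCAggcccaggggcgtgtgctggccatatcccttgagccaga
Mt1: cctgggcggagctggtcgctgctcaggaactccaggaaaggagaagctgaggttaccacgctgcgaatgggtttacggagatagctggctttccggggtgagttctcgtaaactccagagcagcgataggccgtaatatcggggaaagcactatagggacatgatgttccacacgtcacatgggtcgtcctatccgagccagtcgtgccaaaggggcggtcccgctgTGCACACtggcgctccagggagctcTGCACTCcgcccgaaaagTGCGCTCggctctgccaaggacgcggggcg
Sgk1: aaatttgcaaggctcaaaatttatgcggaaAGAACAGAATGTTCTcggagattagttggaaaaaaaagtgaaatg

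Mt2 held 4 metal response element cores, starting 223, 128 and 50 bases before the transcript start and at base 4 of the transcript. Mt1 held 3, of which 1 began 23 bases before the transcript start and the others at bases 2 and 20 of the transcript. Of 32851 promoters of the same length, 25.7% held at least 1 such core, 1.97% at least 3 and 0.517% at least 4. The Sgk1 match ran from 189 to 175 bases before the start of the transcript that this promoter belongs to, and 3 of the 32851 promoters (0.00913%) held that full element. No promoter listed for Fkbp5, Klf9 or Tsc22d3 held it within these 300 bases. A match describes letters and is not evidence of a bound site.

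Facts of the whole data set that bear on these genes are few. The authors deposited RPKM, read numbers scaled by transcript length and by the mapped reads of the mouse, and depth estimated from the steps between low values was 1.52e+07 to 1.61e+07 reads per mouse. Levels of a gene are the sum over its transcripts. Markers of spleen were present in every mouse, with none of the 8 listed at 0, while summed pancreatic acinar markers ranged from 401 to 10850 RPKM and were 7073 to 10850 in the 3 B+Con-FMT mice. In a whole spleen, fewer cells of a type and less RNA per cell cannot be told apart.

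All 8 genes kept the same order of RPKM in 12 of 12 mice, from Mt1 through Mt2, Tsc22d3, Nr3c1, Sgk1, Fkbp5 and Klf9 down to Zbtb16. Mean RPKM over the 12 mice was 102 for Mt1, 82.1 for Mt2, 49.7 for Tsc22d3, 29.2 for Nr3c1, 20.2 for Sgk1, 10.8 for Fkbp5, 4.35 for Klf9 and 0.359 for Zbtb16. The ranges of the first 2 genes overlapped across mice, as did those of Mt2 and Tsc22d3, while the other neighbors in the order did not overlap. The metallothioneins were the most abundant of the 8 and had the largest spread of the 7 genes tested. The within-group SD on the log2 scale was 0.272 for Mt1 and 0.238 for Mt2, larger than that of 95.1% and 93.4% of the genes tested, against a median of 0.0991 over all genes tested. Nr3c1 was the steadiest of the 7, with an SD of 0.0684, and Sgk1 (0.0811) and Fkbp5 (0.0862) also lay under the median.

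**Figure D1:**
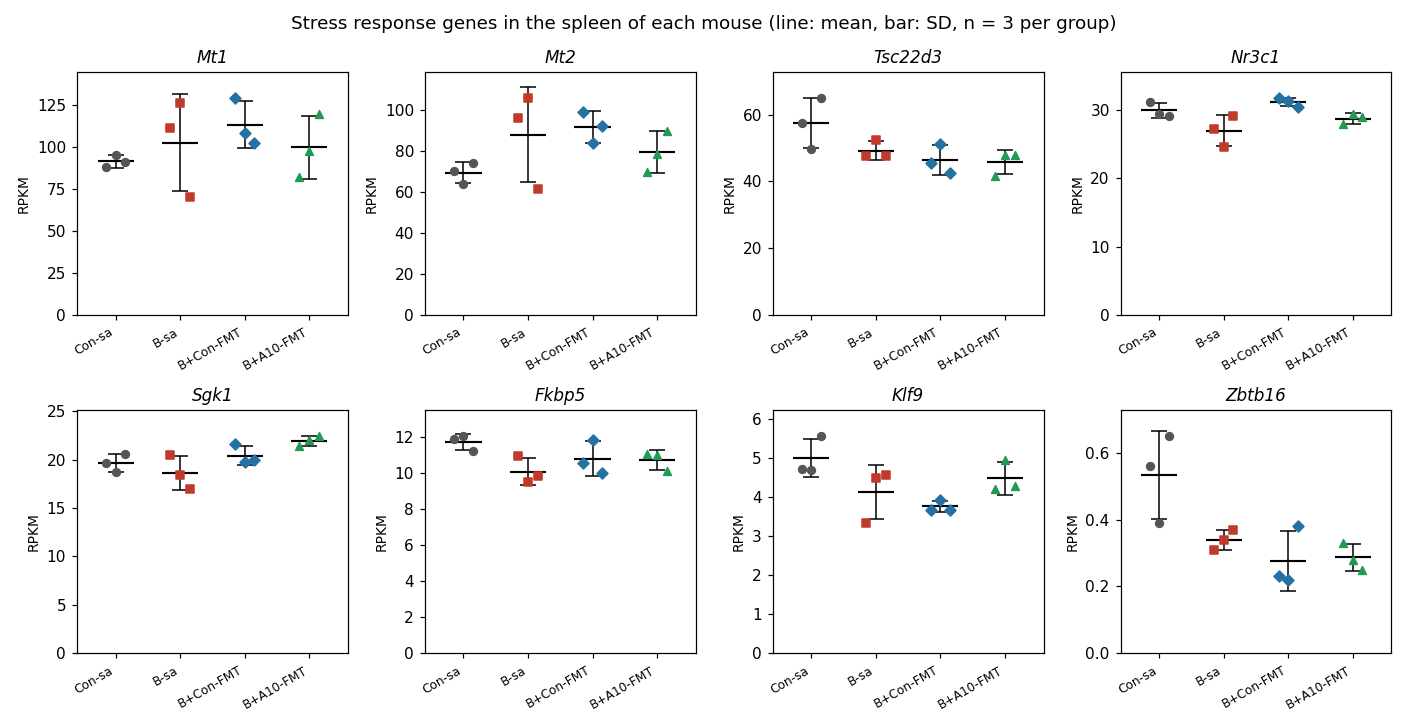
RPKM (vertical axes, starting at 0) of each of the 8 genes in each mouse, with 1 symbol per mouse, grouped by treatment; the line is the mean and the bar the SD of 3 mice. Mt1 and Mt2 spread most in B-sa, and Zbtb16 stayed at or below 0.65 RPKM in every mouse.

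Differences between groups were tested on log2(RPKM + 1) with limma in 1 fit over the 12 mice. P-values were adjusted over the 12671 genes that passed the filter on low values, and an adjusted p under 0.05 counted as a call. A fold change on this scale understates the change of a low gene. Zbtb16 did not reach 1 RPKM in any mouse and was not tested in that fit, so 7 genes and 6 comparisons gave 42 tests. None was called, with adjusted p between 0.0611 and 0.978, and 11 had an unadjusted p under 0.05. All 42 of the 95% intervals lay within a 2-fold difference in either direction and 36 within 1.5-fold; the outermost bounds were 0.640-fold and 1.72-fold, both of metallothioneins. The single largest difference was that of Mt2, 0.39 higher on the log2 scale in the B+Con-FMT than the Con-sa mice.

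**Figure D2:**
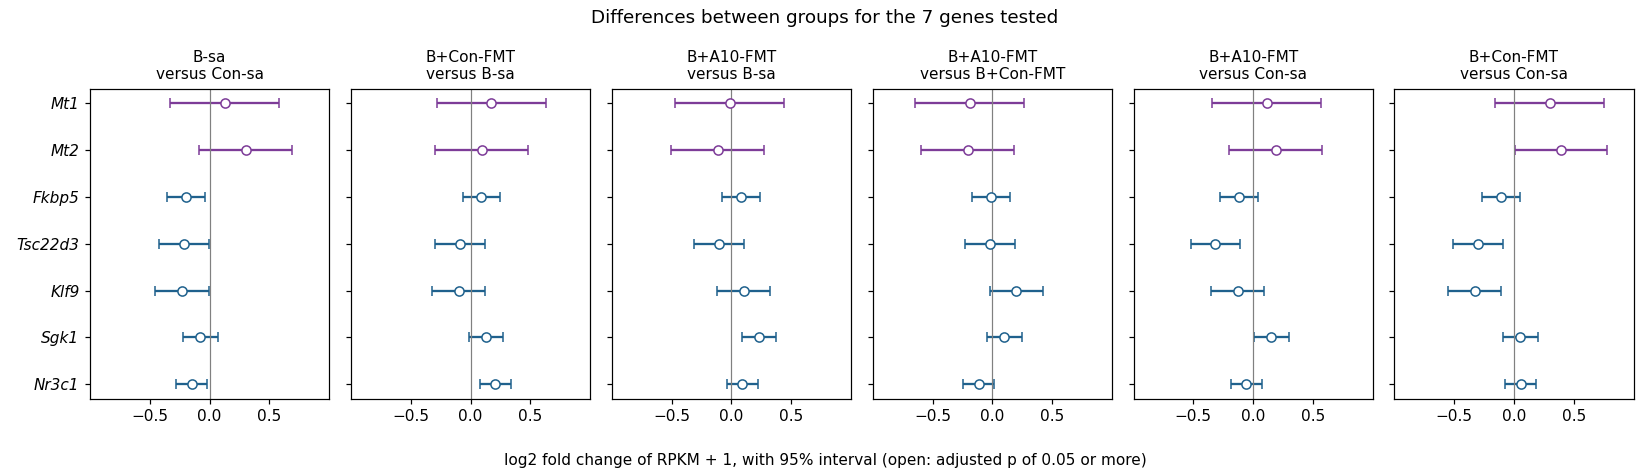
Log2 fold change of RPKM + 1 (horizontal axes) with its 95% interval for the 7 genes tested (vertical axis) in each of the 6 comparisons; open circles mark an adjusted p of 0.05 or more in limma. Every circle is open, and the intervals of Mt1 and Mt2 are the widest.

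The receptor itself, Nr3c1, varied little. It was at 31.23, 29.4 and 29.16 RPKM in the Con-sa mice, 27.19, 24.57 and 29.05 in the B-sa mice, 31.76, 31.27 and 30.49 in the B+Con-FMT mice and 27.89, 29.39 and 28.91 in the B+A10-FMT mice. All 3 B-sa mice lay under all Con-sa mice, by 0.15 on the log2 scale (SE 0.0596, limma adjusted p 0.108), and all 3 B+Con-FMT mice lay above all B-sa mice, by 0.21 (adjusted p 0.112). The B+A10-FMT mice lay under the B+Con-FMT mice without overlap, with a difference of -0.11 (95% interval -0.24 to 0.01), and neither FMT group was separated from Con-sa. Its main transcript rested on an estimated 1505 to 2323 reads per mouse, with a counting error of 2.58% at the lowest.

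Fkbp5 encodes an HSP90 partner that lowers the receptor's affinity for hormone and is itself induced by the receptor. It was at 11.88, 12.04 and 11.2 RPKM in the Con-sa mice, 10.92, 9.47 and 9.82 in the B-sa mice, 10.55, 11.85 and 10 in the B+Con-FMT mice and 11.05, 11.01 and 10.1 in the B+A10-FMT mice. Every B-sa and every B+A10-FMT mouse was under the lowest Con-sa mouse, while 1 B+Con-FMT mouse reached the Con-sa range. The B-sa mean of 10.1 ± 0.757 (SD, n = 3) against 11.7 ± 0.446 was a log2 difference of -0.20 (SE 0.0733, 95% interval -0.36 to -0.04), with a limma adjusted p of 0.0824.

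Tsc22d3 encodes GILZ, a leucine zipper protein that carries anti-inflammatory effects of glucocorticoids in lymphocytes and macrophages. It was at 57.62, 49.82 and 64.99 RPKM in the Con-sa mice, 47.71, 52.47 and 47.47 in the B-sa mice, 45.52, 51.2 and 42.47 in the B+Con-FMT mice and 41.5, 47.89 and 48 in the B+A10-FMT mice. The group means under busulfan, 45.8 to 49.2, were all under that of Con-sa, 57.5 ± 7.59, but the second Con-sa mouse lay inside the range of B-sa and of B+Con-FMT. Log2 differences from Con-sa were -0.21 for B-sa (limma adjusted p 0.150), -0.30 for B+Con-FMT (0.0690) and -0.32 for B+A10-FMT (0.204), with an SE of 0.0959 each. These 3 comparisons share the Con-sa mice. Leaving out a mouse, the difference in B+Con-FMT ran from -0.21 without the third Con-sa mouse (adjusted p 0.190) to -0.40 without the second (0.0441), and that in B-sa from -0.12 (0.433) to -0.31 (0.0637) without the same mice.

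Klf9, a zinc finger transcription factor that the receptor induces in many tissues, was at 4.73, 4.71 and 5.57 RPKM in the Con-sa mice, 3.34, 4.49 and 4.58 in the B-sa mice, 3.68, 3.94 and 3.68 in the B+Con-FMT mice and 4.21, 4.97 and 4.28 in the B+A10-FMT mice. The B-sa and B+Con-FMT mice all lay under the Con-sa mice, and the B+A10-FMT mice overlapped Con-sa and lay above B+Con-FMT. The largest difference was -0.33 (SE 0.103, limma adjusted p 0.0622) in B+Con-FMT against Con-sa. With a mouse left out, its adjusted p ran from 0.0290 without the first B-sa mouse, which is in neither of these groups, to 0.166 without the third Con-sa mouse, where the difference was -0.26.

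Sgk1 encodes a kinase that glucocorticoids and mineralocorticoids induce and that acts on ion transport and cell survival. It was at 19.63, 18.72 and 20.6 RPKM in the Con-sa mice, 20.44, 18.41 and 16.95 in the B-sa mice, 21.57, 19.78 and 19.91 in the B+Con-FMT mice and 21.38, 22.05 and 22.42 in the B+A10-FMT mice. It stood highest in B+A10-FMT, whose mice lay above all Con-sa and all B-sa mice. The difference from B-sa was 0.23 (SE 0.0670, 95% interval 0.09 to 0.38), with the lowest adjusted p of the set, 0.0611, and that from Con-sa was 0.15 (adjusted p 0.344). Leaving out a mouse, the difference from B-sa was 0.30 without the first B-sa mouse (adjusted p 0.0238), 0.23 without the second (0.168) and 0.17 without the third (0.149). Its B+A10-FMT mean lay above that of Con-sa, while those of Fkbp5, Tsc22d3, Klf9 and Zbtb16 lay under it; whether these differences differ was not tested.

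Zbtb16 encodes PLZF, a transcription factor of natural killer T cells that glucocorticoids also induce in many tissues. It was at 0.56, 0.39 and 0.65 RPKM in the Con-sa mice, 0.31, 0.34 and 0.37 in the B-sa mice, 0.23, 0.22 and 0.38 in the B+Con-FMT mice and 0.33, 0.28 and 0.25 in the B+A10-FMT mice. All 9 busulfan-treated mice lay under the lowest Con-sa mouse, and an exact two-sided permutation test gave p = 0.1 for each group, the smallest that 3 mice against 3 allow. In the fit without a filter on low values, it was called in B+Con-FMT against Con-sa, -0.26 (limma adjusted p 0.0496), and not in B-sa (-0.19, adjusted p 0.101) or B+A10-FMT (-0.25, adjusted p 0.168). Summed markers of natural killer and natural killer T cells, 7 genes, spanned 123 to 134 RPKM over the Con-sa mice and 61.8 to 69.8 over the B-sa mice, with 59.9 to 71.8 after Con-FMT and 63.3 to 88.1 after A10-FMT. Summed markers of hepatocytes, 6 genes, were 27.3 to 221 in Con-sa and 12.9 to 89.8 in the other mice. Within Con-sa they had the same order as Zbtb16, but so did Tsc22d3 and several other marker sums. Among these were the sums of T cell, adipocyte, kidney, mesothelium, and fibroblast and smooth muscle markers. The part of natural killer cells, natural killer T cells or hepatocytes in the Zbtb16 values was not tested.

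In B-sa against Con-sa no member was called. Of the 7 genes tested, limma called 0, where 14.5% of all genes tested were called, and 4 (Fkbp5, Tsc22d3, Klf9 and Nr3c1) had an unadjusted p under 0.05, against 31.3% of all genes. Of all 8 genes, 4 (Fkbp5, Klf9, Zbtb16 and Nr3c1) were lower in every B-sa mouse, where the groups did not overlap for 34% of all genes tested. The median log2 difference was -0.15 over the 7 genes and -0.04 over all genes tested. Summed B cell markers moved with these groups, from 2071 to 2286 RPKM in Con-sa to 1580 to 1905 in B-sa, as did those of natural killer cells given above. Summed kidney markers, 6 genes, were 76.7 to 119 RPKM over the Con-sa mice, 7.82 to 15.4 over the B-sa mice, 18.1 to 63.2 after Con-FMT and 0.710 to 3.36 after A10-FMT. Summed adrenal cortex markers, 6 genes, were 15.1 to 15.6 RPKM over the Con-sa mice, 7.27 to 9.10 over the B-sa mice, 6.74 to 9.50 after Con-FMT and 11.04 to 11.6 after A10-FMT. Star and Cyp21a1 made up nearly all of the adrenal sum, while the cortex enzymes Cyp11b1 and Hsd3b1 were each listed at 0 in 11 of 12 mice and the corticotropin receptor Mc2r was at or below 0.27 RPKM. Kap made up most of the kidney sum, from 0.58 to 112.29 RPKM, and Umod was at or below 1 RPKM. Neutrophil markers were higher in the B-sa mice (3634 to 5950 RPKM against 2040 to 2117) and endothelial markers lower (92.9 to 102 against 117 to 123). The part of these tissues and cells in the values of the 8 genes was not tested.

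In B+Con-FMT against B-sa, limma called 0 of the 7 genes, 0.844% of all genes were called, and Nr3c1 was the 1 gene with an unadjusted p under 0.05, against 18.4% of all genes, and the 1 of 8 without overlap, against 19.4%. In B+A10-FMT against B-sa, limma likewise called 0 of 7, against 5.27% of all genes, and Sgk1 was the 1 gene with an unadjusted p under 0.05 (24.5% of all genes) and without overlap (27%). In B+A10-FMT against B+Con-FMT, limma called 0 of 7 (10.4% of all genes), 0 had an unadjusted p under 0.05 (28.9% of all genes), and Klf9 was higher and Nr3c1 lower without overlap (35%). The B-sa mice served in the first 2 of these comparisons. The median difference over the 7 genes was 0.09, 0.08 and -0.02 in these 3 comparisons, and 0.00, 0.05 and 0.05 over all genes tested.

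Against Con-sa, limma called 0 of 7 genes in B+A10-FMT, where 0.41% of all genes were called, and 0 in B+Con-FMT, where 8.87% were. In B+A10-FMT, 2 genes (Tsc22d3 and Sgk1) had an unadjusted p under 0.05, against 13.5% of all genes, and 4 of 8 did not overlap (Sgk1 higher, Fkbp5, Tsc22d3 and Zbtb16 lower), against 21.6% of all genes. In B+Con-FMT, 3 genes (Tsc22d3, Klf9 and Mt2) had an unadjusted p under 0.05, against 27.4%, and 4 of 8 did not overlap (Mt1 and Mt2 higher, Klf9 and Zbtb16 lower), against 34.1%.

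The 2 metallothioneins stood in a similar order across mice. Mt1 was at 87.65, 95.02 and 90.99 RPKM in the Con-sa mice, 111.22, 125.86 and 70.33 in the B-sa mice, 128.97, 108.06 and 102.15 in the B+Con-FMT mice and 82.19, 97.65 and 119.42 in the B+A10-FMT mice. Mt2 was at 70.31, 63.75 and 74.13 in the Con-sa mice, 96.14, 105.8 and 61.6 in the B-sa mice, 98.92, 83.7 and 92.09 in the B+Con-FMT mice and 69.85, 78.58 and 89.85 in the B+A10-FMT mice. For both genes the third B-sa mouse was the lowest of all 12, and the other B-sa mice stood among the highest. Con-sa was the tightest group for both genes on the RPKM scale, with an SD of 3.69 for Mt1 against 28.8 in B-sa.

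Mt2 in B-sa averaged 87.8 ± 23.2 RPKM against 69.4 ± 5.25 in Con-sa, a difference of 0.30 on the log2 scale with a 95% interval from -0.09 to 0.69. With a mouse left out, it ran from 0.15 without the second B-sa mouse (limma adjusted p 0.627) to 0.54 without the third (0.0137). In B+Con-FMT, every mouse lay above every Con-sa mouse for both genes, by 0.30 for Mt1 (95% interval -0.16 to 0.76) and 0.39 for Mt2 (0.01 to 0.78, adjusted p 0.175). B+A10-FMT overlapped all other groups for both genes. Acinar markers moved with B+Con-FMT, at 1118 to 5919 RPKM in Con-sa against 7073 to 10850. The third B+A10-FMT mouse was highest of its group in both genes and in acinar markers (8548 RPKM against 411 and 696). The second Con-sa mouse, highest of its group in acinar markers (5919 RPKM), was its highest in Mt1 and its lowest in Mt2 (63.75 RPKM). The second B-sa mouse, highest of all mice in Mt2 (105.8), had 859 RPKM of acinar markers, against 2826 in the first B-sa mouse. With acinar level in the fit, the differences of B+Con-FMT from Con-sa were 0.08 for Mt1 (limma adjusted p 0.807) and 0.26 for Mt2 (0.397). Acinar level did not overlap between these groups, and its part in the metallothionein values was not tested.

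**Figure D3:**
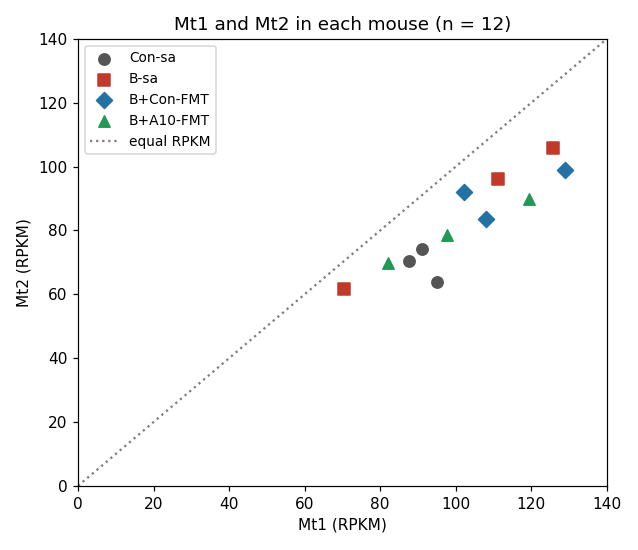
Mt2 against Mt1 in RPKM, 1 symbol per mouse and 1 shape and color per group; the dotted line marks equal values. All 12 mice lie under the line, and the third B-sa mouse (70.33, 61.6) lies at the lower left, away from the other B-sa mice.

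Deviations of Mt1 and Mt2 from their group means on the log2 scale had a Pearson r of 0.914 over the 12 mice (permutation p = 0.0123, exact over 1296 arrangements within groups) and a Spearman rho of 0.881 (exact permutation p = 0.0139). Without the 2 mice farthest from the median, both of B-sa, r was 0.766. This was 1 of 28 pairs among the 8 genes, and adjusted over them the p-values were 0.346 and 0.302, so no pair passed the correction. The ratio of Mt1 to Mt2 stayed between 1.11 and 1.49 in every mouse. Coding parts of metallothionein genes are alike, and the part of shared reads in this relation was not tested. The methods set SOAPaligner's option for reads with several hits, the processing notes list other aligners, and how such reads were counted per gene is not given in the sources used here. Mt3, the neuronal form, was at or below 0.18 RPKM in every mouse.

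The genes with the most similar pattern were sought among 9418 or 9419 tested genes with a mean of at least 5 RPKM, by Pearson r over 12 mice, as a description with group differences included. For Tsc22d3 they were Ddit4 (r = 0.889), an inhibitor of mTOR signaling that glucocorticoids also induce, Sik1 (0.867) and Neurl3 (0.829). For Fkbp5 they were Slc35e3 (0.919), Irf8 (0.918), a factor of B and myeloid cells, and Parp1 (0.908), and for Nr3c1 Gopc (0.890), Creb1 (0.865) and Chd3 (0.863). For Sgk1 they were Eef2kmt (0.892), Vegfa (0.891), a vascular growth factor, and Ppil2 (0.879).

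Ddit4 was at 24.7 ± 3.06 RPKM in the Con-sa mice, 22.3 ± 0.640 in the B-sa mice, 19.2 ± 1.46 in the B+Con-FMT mice and 20.9 ± 1.26 in the B+A10-FMT mice. For Klf9 the nearest were Hpgds (0.899), Aoc2 (0.867) and Setd1b (0.858). For Mt1 they were Mt2 (0.900), 2310057M21Rik (0.886) and Fdx2 (0.876), and for Mt2 Noc4l (0.903), Mt1 (0.900) and Bcat2 (0.889). For Zbtb16 they were Serpina1c (0.920), Apoc1 (0.872) and Serpina1d (0.869), all of which are abundant in liver.

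A second set of genes that glucocorticoids induce in many cells, 23 genes without the 8 above, had calls in both directions. Of the 21 tested, limma called 1 higher and 2 lower in B-sa against Con-sa (14.5% of all genes were called), and against B-sa it called 1 higher and 0 lower after Con-FMT (0.844%) and 3 higher and 1 lower after A10-FMT (5.27%). In B+A10-FMT, 2 were called higher and 2 lower than in B+Con-FMT (10.4%), and 0 higher and 1 lower than in Con-sa (0.41%). In B+Con-FMT, 0 were called higher and 3 lower than in Con-sa (8.87%). Differences were below 0 for 16 of the 21 in B-sa against Con-sa (59.8% of all genes tested), and for 14 of the 21 after Con-FMT (60%) and after A10-FMT (48.2%) against the same Con-sa mice. Medians of the list stayed between -0.08 and 0.10 on the log2 scale in the 6 comparisons.

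Mertk, the receptor by which macrophages take up dying cells, rose in B+A10-FMT to 13.03 ± 1.34 RPKM against 8.06 ± 0.959 in B+Con-FMT (log2 difference 0.63, SE 0.102, limma adjusted p 0.00486). In the same comparison 9 of 9 red pulp macrophage markers were above 0, with a median of 0.37 and 3 called (Slc40a1, Spic and Vcam1), and their part in the Mertk value was not tested. Cxcr4, the receptor for the marrow chemokine CXCL12, fell in B+A10-FMT to 61.2 ± 0.867 RPKM, from 77.3 ± 4.78 in B-sa (-0.33, adjusted p 0.0245) and 82.0 ± 7.24 in Con-sa (-0.41, adjusted p 0.0267). These 2 Cxcr4 calls were lost under 6 and 9 of 23 alternative settings, among them leaving out any of the 3 B+A10-FMT mice. Il7r, the interleukin-7 receptor of T cells, averaged 17.7 ± 1.03 in the Con-sa mice, 14.0 ± 2.36 in the B-sa mice, 19.88 ± 1.33 after Con-FMT and 19.9 ± 1.04 after A10-FMT. It fell in B-sa against Con-sa (-0.33, limma adjusted p 0.0430) and was higher than in B-sa in both B+Con-FMT (0.49, adjusted p 0.0409) and B+A10-FMT (0.49, adjusted p 0.0188). Of T cell markers 8 of 8 were above 0 in both FMT groups against B-sa, with 1 and 0 called in limma. An unadjusted p under 0.05 was found for 6 and 2 of them, against 18.4% and 24.5% of all genes. In B-sa against Con-sa the median of these markers was -0.03, with 0 called and 0 at an unadjusted p under 0.05. The part of T cell number was not tested. The first 2 of these Il7r calls were each lost under 15 of 23 alternative settings and the last under 5, and without the second B-sa mouse the difference of B-sa from Con-sa was -0.19 (adjusted p 0.137). Anxa1, a phospholipid-binding protein abundant in neutrophils, rose in B-sa to 109 ± 21.6 from 65.7 ± 4.10 (0.70, adjusted p 0.0496), beside summed neutrophil markers of 3634 to 5950 RPKM in B-sa and 2040 to 2117 in Con-sa. The part of neutrophil number in the Anxa1 value was not tested, and the call was lost under 15 of the 23 settings.

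Rgs2, a brake on G protein signaling that was chosen after its values were seen, rose in B+A10-FMT to 27.6 ± 0.937 RPKM against 20.9 ± 1.43 in B-sa (0.39, limma adjusted p 0.00770). Of the calls of this second set, this was the 1 kept under all 23 alternative settings. Txnip in B-sa against Con-sa (-0.27, adjusted p 0.0400), Errfi1 (-0.31, 0.0425) and Ddit4 (-0.35, 0.0261) in B+Con-FMT against Con-sa, and Nfkbia in B+A10-FMT against B+Con-FMT (-0.27, 0.0444) were the other genes called, and these too, apart from Ddit4, were named after their values were seen.

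**Figure D4:**
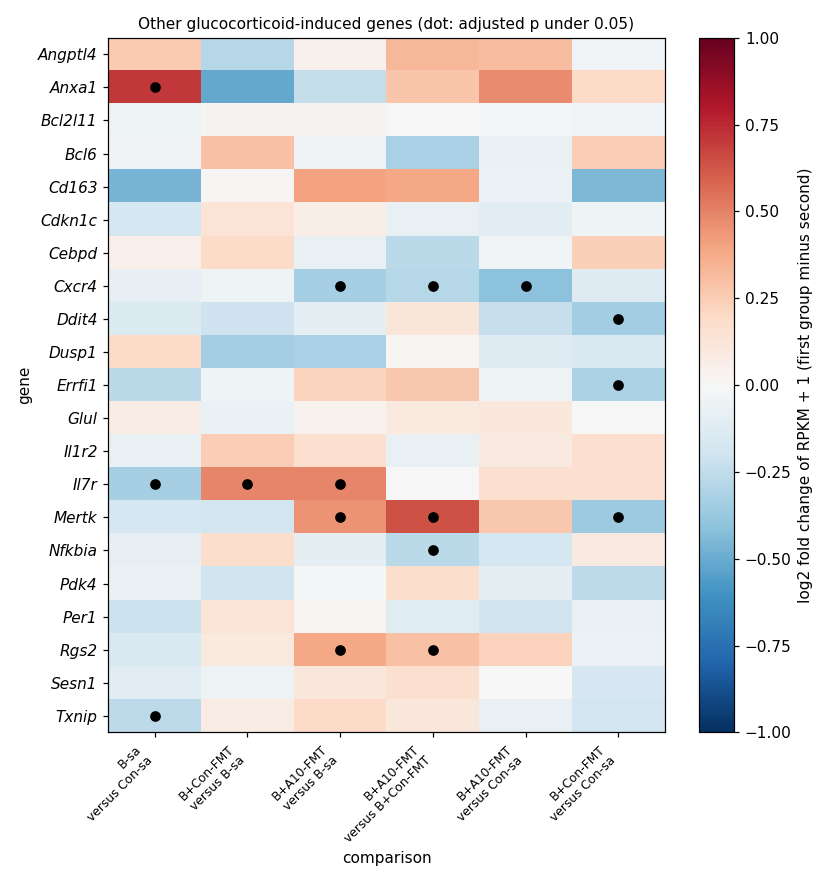
Log2 fold change of RPKM + 1 (color) of the 21 other glucocorticoid-induced genes tested (rows, alphabetical) in the 6 comparisons (columns); a dot marks an adjusted p under 0.05 in limma. Dots are few and of both colors, with Mertk, Rgs2 and Il7r among the higher and Cxcr4 lower in B+A10-FMT.

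Several genes in a list of receptor chaperones, cofactors and steroid-handling enzymes differed between groups. Of 18 tested chaperones, cofactors and steroid-handling enzymes, 4 rose and 0 fell in B+Con-FMT against B-sa, where 0.844% of all genes were called. In B+Con-FMT against Con-sa 6 rose and 2 fell (8.87% of all genes called), and in B+A10-FMT against B+Con-FMT 4 rose and 6 fell (10.4%). In B-sa against Con-sa 0 rose and 5 fell (14.5%), in B+A10-FMT against B-sa 2 rose and 1 fell (5.27%), and in B+A10-FMT against Con-sa limma called 0 (0.41%), with 2 at an unadjusted p under 0.05. The genes that rose in B+Con-FMT were the chaperones, and whether their rise bears on the receptor was not tested.

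Hsp90aa1, the inducible HSP90, was at 334.78, 312.05 and 327.31 RPKM in the Con-sa mice, 358.87, 404.86 and 404.71 in the B-sa mice, 651.69, 553.1 and 547.06 in the B+Con-FMT mice and 342.5, 315.11 and 276.56 in the B+A10-FMT mice. Stip1, which hands the receptor from HSP70 to HSP90, was at 86.66, 83.06 and 83.54 in the Con-sa mice, 89.19, 82.84 and 85.07 in the B-sa mice, 152.3, 153.46 and 144.92 in the B+Con-FMT mice and 94.13, 84.82 and 74.54 in the B+A10-FMT mice. In both genes the 3 B+Con-FMT mice lay above all 9 others. Differences of B+Con-FMT from B-sa were 0.58 for Hsp90aa1 (limma adjusted p 0.00912) and 0.80 for Stip1 (SE 0.0706, adjusted p 0.000296).

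Fkbp4, the partner that takes the place of Fkbp5 once hormone binds, rose by 0.59 in B+Con-FMT against B-sa (limma adjusted p 0.00300) and Hsp90ab1, the constitutive HSP90, by 0.48 (adjusted p 0.00124). All 12 calls of these 4 chaperones in comparisons with B+Con-FMT held under each of the 23 alternative settings, with acinar marker level as a covariate among them. Summed T cell markers, 8 genes, were also higher in the B+Con-FMT mice, at 391.8 to 487 RPKM, against 301 to 387 in the B-sa and 311 to 371 in the Con-sa mice, but overlapped the B+A10-FMT mice (340 to 402), and their part was not tested. Ptges3, a co-chaperone called p23, was lower in the B+A10-FMT than the B+Con-FMT mice (difference -0.44, adjusted p 0.00646) and kept that call as well.

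**Figure D5:**
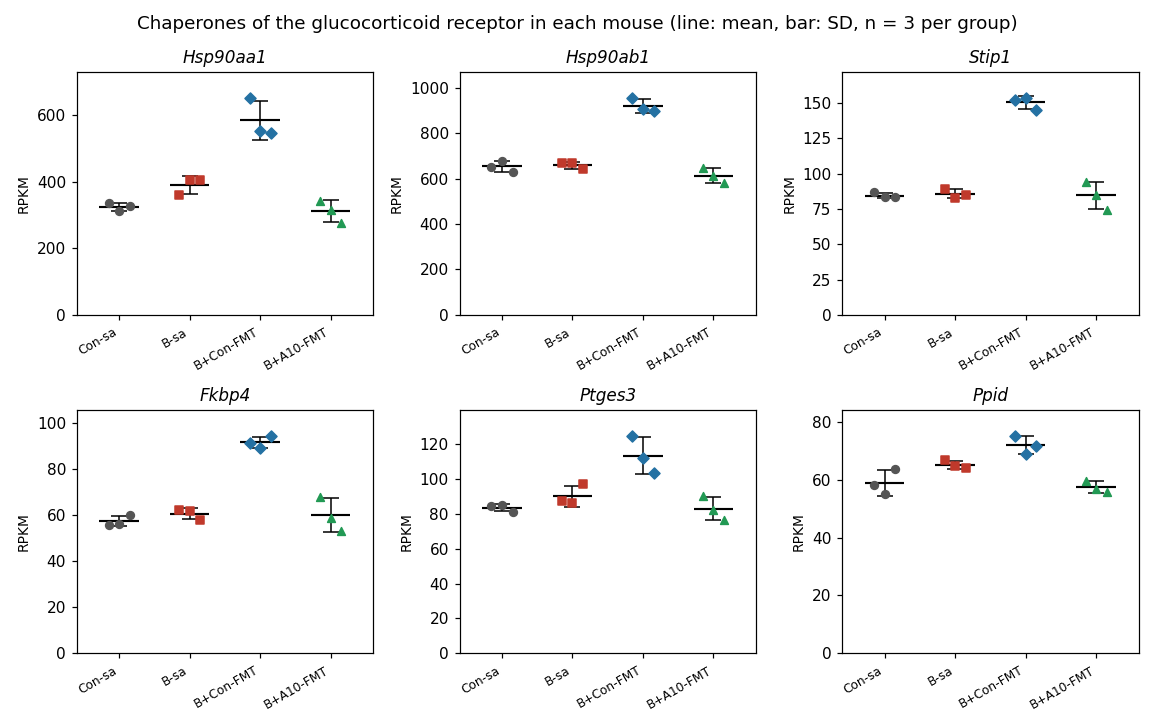
RPKM (vertical axes, starting at 0) of 6 chaperones of the glucocorticoid receptor in each mouse, 1 symbol per mouse; the line is the mean and the bar the SD of 3 mice. The B+Con-FMT mice lie above all other mice for Hsp90aa1, Hsp90ab1, Stip1, Fkbp4, Ptges3 and Ppid.

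The ratio of Fkbp5 to Fkbp4, looked at after the values were seen, was 0.205 ± 0.0154 in the Con-sa mice, 0.166 ± 0.0113 in the B-sa mice, 0.118 ± 0.0136 in the B+Con-FMT mice and 0.180 ± 0.0150 in the B+A10-FMT mice (SD, n = 3). The B+Con-FMT range, 0.106 to 0.133, did not overlap the others, and it followed Fkbp4, since the Fkbp5 means of the 3 busulfan groups lay between 10.1 and 10.8 RPKM. The coactivators Ncoa3 (-0.38, limma adjusted p 0.00714) and Ep300 (-0.31, adjusted p 0.00947) fell in B-sa against Con-sa and kept that call under all 23 settings. The coactivator Ncoa2 (-0.25, limma adjusted p 0.0281) and the mediator subunit Med1 (-0.28, adjusted p 0.0124) also fell there, with calls lost under 8 and 3 of the 23 settings. All 4 genes were named after their values were seen.

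Enzymes that regenerate active hormone inside cells also differed between the FMT groups. Hsd11b1 rose to 51.8 ± 4.48 RPKM in B+A10-FMT against 40.6 ± 4.61 in B+Con-FMT (0.35, limma adjusted p 0.0191), and H6pd, which supplies its cofactor, rose to 14.5 ± 0.847 against 10.99 ± 1.27 (0.37, adjusted p 0.0161). Neither call held with acinar marker level in the fit, and with curated transcripts alone the Hsd11b1 difference was -0.30. In the same comparison 7 of 7 endothelial markers were above 0, with a median of 0.43 and 5 called, beside the 9 of 9 red pulp macrophage markers given above, and the part of these cells was not tested. Both genes were named after their values were seen. The mineralocorticoid receptor Nr3c2, which binds the same hormone, was between 0.29 and 0.72 RPKM and was not tested.

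Of 23 metal-response and zinc-transport genes 20 were tested, and limma called 3 in all 6 comparisons together, each lower and in a different comparison. These were 1 of 20 where 14.5%, 8.87% and 10.4% of all genes were called, in the order given next. Slc39a10, a zinc importer, fell in B-sa against Con-sa (-0.27, adjusted p 0.0291), and Slc30a4, a zinc exporter, fell in B+Con-FMT against Con-sa (-0.35, adjusted p 0.0341). These 2 calls were lost under 9 and 8 of the 23 alternative settings, among them leaving out any of the 3 Con-sa mice. Slc39a7, which releases zinc from the endoplasmic reticulum, fell in B+A10-FMT against B+Con-FMT (-0.21, adjusted p 0.0308), but the difference was 0.0745 with the highest transcript of each gene alone (adjusted p 0.697). The Slc39a7 call was lost under 9 of the 23 settings. Mtf1 stayed between 5.56 and 6.30 RPKM in all mice, and Slc30a1, an exporter that MTF1 also induces, had means of 8.54 in the Con-sa mice, 7.28 in the B-sa mice, 7.26 in the B+Con-FMT mice and 8.95 in the B+A10-FMT mice and was called in no comparison in limma.

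In the oxidative stress list, limma called 3 of 10 genes in B-sa against Con-sa, where 14.5% of all genes were called. Gclm (0.31, limma adjusted p 0.0223), of glutathione synthesis, and Srxn1 (0.23, adjusted p 0.0401), which repairs peroxiredoxins, rose in B-sa against Con-sa, and Osgin1 fell (-0.41, adjusted p 0.0269). The calls of Gclm, Srxn1 and Osgin1 were lost under 7, 10 and 6 of the 23 alternative settings. In B-sa against Con-sa 8 of 10 erythroid markers were above 0, with a median of 0.31, 4 called higher and 2 lower. Of the 2 lower, Hbb-bs was at 9.2 to 30.54 RPKM in B-sa against 20289.5 to 45902 in Con-sa. Hbb-bt, the other, was at 11.69 to 16.44 against 4649.51 to 10095.1, and the cause of this gap was not tested. Of neutrophil markers 8 of 8 were above 0, with a median of 1.09. The part of erythroid cells and neutrophils in the oxidative stress genes was not tested. Hmox1, the heme-degrading enzyme of red pulp macrophages, rose to 379 ± 42.2 RPKM in B+A10-FMT from 253 ± 25.7 in B+Con-FMT (0.58, adjusted p 0.0164), and this call was lost with acinar marker level in the fit. The red pulp macrophage markers given beside Mertk moved in the same comparison, and their part was not tested. Of 10 acute phase and cytokine genes tested, Tnf fell in B+A10-FMT against B+Con-FMT (-0.47, adjusted p 0.0367) and Il6ra rose in B+A10-FMT against B-sa (0.33, adjusted p 0.0432), where 10.4% and 5.27% of all genes were called. The Tnf call was lost under 11 of the 23 alternative settings, among them leaving out any of the 6 mice compared, and the Il6ra call under 15. Of 16 circadian clock genes tested, Clock (-0.27, adjusted p 0.0272) and Tef (-0.24, adjusted p 0.0497) fell in B-sa against Con-sa, where 14.5% of all genes were called, and no clock gene was called in the other 5 comparisons in limma, where 2 to 4 had an unadjusted p under 0.05, against 13.5% to 28.9% of all genes. The Clock call was lost under 6 of the 23 alternative settings and the Tef call under 17. The named genes outside the 8 had 54 calls over the 6 comparisons, not all of them given above, of which 18 held under all 23 alternative settings and 36 were lost under at least 1 of them.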

How the data were processed

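Spleen RNA of 12 male mice, 3 per group, was enriched with oligo(dT) and sequenced. The authors deposited RPKM per RefSeq transcript, 1 table per mouse, with no counts. The methods name SOAPaligner while the submitters' processing notes list HISAT, Bowtie2 and mm10, and which was used is not given in the sources used here. RPKM of 60654 transcripts were summed to 18221 genes, named and placed with RefSeq (GRCm38.p6; 18101 matched). Depth, 1.52e+07 to 1.61e+07 reads per mouse, was estimated from steps between low values of 2604 single-transcript genes; without counts no counting interval is given for a level. Groups and replicate numbers came from the labels.

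The 12671 genes that reached an RPKM of 1 in 3 or more mice entered a limma fit (version 3.58.1, R 4.3.3) of log2(RPKM + 1) (trend and robust settings, 12 mice, group only), with Benjamini-Hochberg adjustment over all of them. All tests are two-sided. The p-values measure the spread between these mice. Single values were also compared by exact permutation tests of 3 against 3 (smallest p 0.1). Scripts were tested on simulated data. Other steps used matplotlib 3.10.9, SciPy 1.17.1, pandas 2.3.3 and NumPy 2.4.6 in Python 3.11.15.

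The 8 genes and all gene lists were chosen with earlier results of these data known. Named genes are the 8, up to 4 per list by largest absolute log2 fold change among those called, and the 3 nearest in pattern to each of the 8; Ptges3, Ppid, Hsd11b1, H6pd, Med1, Ncoa2, Ncoa3, Ep300, Rgs2, Txnip, Errfi1 and Nfkbia, and the levels of Mt3, Mtf1, Slc30a1 and Nr3c2, were added after their values were seen. Some values are not reported here. Alternatives were a pseudocount of 0.1, no filter, RPKM of at least 1 in every mouse, a replicate block, no trend and robust settings, each mouse left out in turn, a fit of just the 2 groups compared, median-of-ratios scaling, equal totals outside globin, curated transcripts or the highest transcript only, and, added after seeing the data, acinar marker level as a covariate.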

Additional observations from a re-analysis of the deposited data

How the results depend on the processing

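Of 504 differences of the 7 genes with a mouse left out, 484 kept their direction and their side of the threshold, 7 passed it and 13 reversed; of 462 under the other alternatives, 450, 5 and 7 did. The number of the 7 genes called was 0 with all mice. Leaving out a mouse it was 0 to 2 in B-sa against Con-sa (Fkbp5, -0.26, adjusted p 0.0418, without the first B-sa mouse; Mt2, and Nr3c1 at -0.20, adjusted p 0.0471, without the third), 0 to 1 in B+A10-FMT against B-sa and in B+Con-FMT against Con-sa (Mt2 at an adjusted p of 0.0282 without the third B-sa mouse), and 0 in the other comparisons. With equal totals outside globin it was 1 in B+A10-FMT against B-sa (Sgk1) and 2 in B+Con-FMT against Con-sa (Klf9 and Tsc22d3); in the latter it was 2 with only the 2 groups compared (Klf9 and Mt2). With no filter, where Zbtb16 was tested too, 1 of the 8 was called there (Zbtb16). The cause was not tested.

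In B+A10-FMT against B+Con-FMT, Fkbp5 turned to 0.0454 and Tsc22d3 to 0.0396 with equal totals outside globin. With acinar level as a covariate, Fkbp5 there turned to 0.00488 and Mt1 to 0.15, and in B+Con-FMT against B-sa Klf9 turned to 0.0634, Mt1 to -0.21 and Mt2 to -0.15. Slc39a7 in B+A10-FMT against B+Con-FMT turned to 0.0745 with the highest transcript only and Hsd11b1 to -0.30 with curated transcripts only. Leaving out a mouse turned 9 differences, whose ranges were -0.0569 to 0.0552 for Fkbp5 in B+A10-FMT against B+Con-FMT, -0.0777 to 0.0543 for Tsc22d3 in B+A10-FMT against B+Con-FMT, -0.0154 to 0.17 for Klf9 in B+A10-FMT against B-sa, -0.0429 to 0.37 for Mt1 in B-sa against Con-sa, -0.0721 to 0.34 for Mt1 in B+Con-FMT against B-sa, -0.26 to 0.15 for Mt1 in B+A10-FMT against B-sa, -0.0249 to 0.24 for Mt1 in B+A10-FMT against Con-sa, -0.14 to 0.24 for Mt2 in B+Con-FMT against B-sa and -0.35 to 0.0371 for Mt2 in B+A10-FMT against B-sa. Mt1 and Mt2 kept an r of 0.755 to 0.961.

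Deviations of same-numbered mice of different groups had r from -0.37 to 0.30, and those of different-numbered mice from -0.43 to 0.51. Deviations from the mean of 3 mice offset each other, so these values cannot tell whether the replicate numbers pair mice. With the replicate block, 0 of the 7 genes were called in each comparison. Calls over all genes went from 1838, 107, 668, 1312, 52 and 1124 to 1462, 85, 417, 917, 41 and 773 in the order B-sa against Con-sa, B+Con-FMT against B-sa, B+A10-FMT against B-sa, B+A10-FMT against B+Con-FMT, and B+A10-FMT and B+Con-FMT against Con-sa. Leaving out a mouse these were 513 to 2100, 19 to 466, 106 to 832, 218 to 1558, 1 to 74 and 329 to 1305. With only the 2 groups compared they were 972, 32, 158, 1016, 36 and 1021, with curated transcripts 741, 25, 203, 546, 1 and 382, with the highest transcript 547, 23, 111, 315, 1 and 258, with equal totals outside globin 1682, 180, 726, 2339, 64 and 1836, and with acinar level 1014, 40, 656, 294, 47 and 981. With median-of-ratios scaling, calls in B-sa against Con-sa were 964 higher and 780 lower, against 599 and 1239 without it. They were 282 and 352 in B+A10-FMT against B-sa (507 and 161 without it) and 561 and 697 in B+A10-FMT against B+Con-FMT (960 and 352). In B+Con-FMT they were 570 and 530 against Con-sa (292 and 832) and 92 and 32 against B-sa (79 and 28). In B+A10-FMT against Con-sa they were 22 and 44 (15 and 37). The shares of all genes below 0 given above are without this scaling.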
